A study of Mus musculus with 18 samples.

Results

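The genes described here encode 7 G protein-coupled receptors for lipids, metabolites and protons in mouse bone marrow-derived macrophages (BMDM): S1pr1, Ptafr, Gpr34, Hcar2, Gpr84, Gpr35 and Gpr65. They were taken by symbol from a table of 30530 genes, and all 7 were among the 12741 genes with enough counts to be tested. They were chosen by hand with expression values of these libraries known, and which values led to the choice is not recorded, so every comparison counts as having been in view. Fold changes and adjusted p-values therefore place each receptor in the fit across all tested genes, as a description, and the number of receptors past the threshold is no test of the group.

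G protein-coupled receptors sit in the cell membrane and pass the binding of an outside ligand to heterotrimeric G proteins, which raise or lower cyclic AMP or act on phospholipase C. Macrophages use such receptors to read lipids shed from membranes, products of metabolism and the acidity around them. S1PR1 binds sphingosine 1-phosphate, PTAFR binds platelet-activating factor and GPR34 binds lysophosphatidylserine. HCAR2 binds niacin, the ketone body beta-hydroxybutyrate and butyrate, GPR84 binds medium-chain fatty acids, kynurenic acid is among the ligands proposed for GPR35, and GPR65 senses protons.

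RNA-seq of polyadenylated RNA was carried out on BMDM, phagocytes grown in culture from bone marrow, in 6 groups of 3 libraries numbered by mouse. C57BL/6 (B6) cells given 25-hydroxycholesterol (25HC, an oxysterol, at 5 µM for 18 hours) were studied with Pam3CSK4 at 300 ng/mL (PAM3, a lipopeptide agonist of Toll-like receptors 1 and 2) and at rest. Cells of Ch25h-/- mice, which lack the enzyme that makes 25HC, received no 25HC and were studied with PAM3 and at rest, as were untreated B6 cells. The labels give a stimulation time of 18, without a unit, for PAM3 libraries and 0 for those at rest, so a PAM3 comparison, and any difference built on it, may include time in culture. Ages and sexes are not given in the labels, and libraries of 1 genotype with the same number come from the same mouse, so a group holds 3 animals and the groups of a genotype share them.

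Library totals ran from 14.04 to 150.4 M counts, and 1 count in a library was worth 0.00711 to 0.0686 CPM, the unit of level used here, in which counts are scaled to a common library size. All 7 macrophage markers examined (Csf1r, Adgre1, Cd68, Itgam, Mertk, Fcgr1 and Lyz2) lay above 1 CPM in every group, and together they summed to 18387 to 57981 CPM. After 25HC in B6 cells, 5 of the 7 were lower at an adjusted p below 0.05 and 0 were higher, both with PAM3 and at rest. Of all tested genes, 23.6% were lower with PAM3 and 11.4% at rest. Ch25h held 0 to 2 counts in each Ch25h-/- library and 1.66 to 40.8 CPM in B6 libraries. On the third principal component, replicate 2 at rest stood apart at 75.6 in Ch25h-/- and 31.3 in untreated B6 cells, with the remaining libraries of both groups between -18.9 and 9.97, so results that rest on it are given with and without it. In such bulk samples fewer cells of a type and less RNA per cell cannot be told apart.

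The promoters of Ptafr, Gpr84 and Gpr35 are shown because Ptafr RNA moved in opposite directions with 25HC in cells with PAM3 and at rest, Gpr84 RNA moved most at rest, and a Gpr35 window holds a named motif. RefSeq's table (GRCm38.p6) held 5 windows for 4 of the 7 receptors, each from 250 bases before to 50 after an annotated start. Capitals mark a motif match, on either strand, to AP-1 (TGANTCA) or to the composite site of C/EBP and ATF4 (TGATGNAA).
Ptafr, chr4:132563817-132564116, plus strand: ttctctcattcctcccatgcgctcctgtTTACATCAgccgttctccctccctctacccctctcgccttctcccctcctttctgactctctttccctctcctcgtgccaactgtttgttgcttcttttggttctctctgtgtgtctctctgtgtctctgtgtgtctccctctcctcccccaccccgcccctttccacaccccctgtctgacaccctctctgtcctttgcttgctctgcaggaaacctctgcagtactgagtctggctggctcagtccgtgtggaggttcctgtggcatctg
Gpr84, chr15:103310389-103310688, minus strand: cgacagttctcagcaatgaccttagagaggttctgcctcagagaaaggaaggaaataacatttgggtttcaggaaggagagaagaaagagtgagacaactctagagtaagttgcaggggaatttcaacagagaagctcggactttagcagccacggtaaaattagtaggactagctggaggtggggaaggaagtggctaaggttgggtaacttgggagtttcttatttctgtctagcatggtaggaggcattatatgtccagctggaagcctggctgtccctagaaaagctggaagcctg
Gpr35, second annotated start, chr1:92978653-92978952, plus strand: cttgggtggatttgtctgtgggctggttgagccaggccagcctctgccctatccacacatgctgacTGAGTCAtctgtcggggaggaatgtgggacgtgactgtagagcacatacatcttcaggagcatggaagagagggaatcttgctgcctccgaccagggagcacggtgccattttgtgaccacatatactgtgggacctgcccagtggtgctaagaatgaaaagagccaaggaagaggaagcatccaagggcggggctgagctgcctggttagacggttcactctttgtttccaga
The Ptafr window held 1 composite site, starting at position -222 from the annotated start and read on the opposite strand, and the second Gpr35 window held 1 AP-1 match at position -184. Of all 32851 promoter windows, 3.97% held the composite site and 7.81% the AP-1 motif. Neither motif, nor the NF-kB motif present in 8.46% of windows, nor the interferon-stimulated response element present in 3.44%, was found in the Gpr84 window, in the Gpr65 window or in the first Gpr35 window. A match is a run of letters and says nothing of binding.

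The addition of 25HC to B6 cells went with a different set of receptor changes in PAM3-treated cells and in cells at rest. With PAM3, 4 of the 7 receptors passed an adjusted p of 0.05 (edgeR's quasi-likelihood test, Benjamini-Hochberg adjusted over all tested genes), where 45.1% of all tested genes did. Of these, Hcar2, S1pr1 and Ptafr were higher (21.5% of all tested genes) and Gpr65 was lower (23.6%). At rest 3 of 7 passed, where 26.2% of tested genes did: Gpr84 was higher (14.8% of tested genes) and Gpr34 and Ptafr were lower (11.4%). With the animal as a block 6 of 7 passed at rest, and 5 of 7 without replicate 2 of every group. The calls over all tested genes at rest also grew under these settings, to 4196 with the block and 5103 without replicate 2, beside 3334 in the fit reported here. The difference between these 25HC effects, with PAM3 minus at rest, passed for 4 of 7 receptors, against 28.3% of tested genes. It was positive for Hcar2, S1pr1 and Ptafr (12.5% of tested genes) and negative for Gpr84 (15.8%). The median absolute log2 fold change of the 7 receptors was 1.26 with PAM3, beside 0.43 over all tested genes, and 0.77 at rest, beside 0.32. Because the receptors were chosen with values of these libraries known, neither the counts called nor these medians are a result about the receptors as a group.

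**Figure D1:**
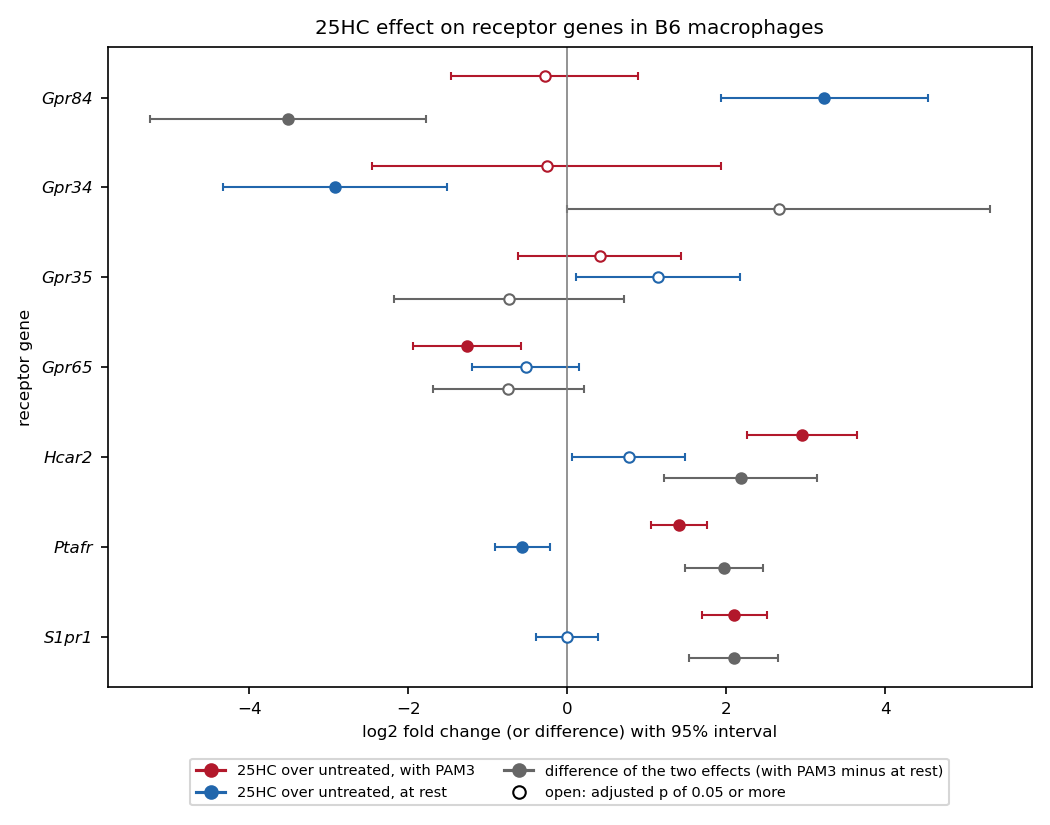
Log2 fold change of each receptor gene for 25HC over untreated B6 cells with PAM3 (red) and at rest (blue), and the difference between them (grey), with 95% intervals from the edgeR fit. Hcar2, S1pr1 and Ptafr lie right of 0 with PAM3, at 2.95, 2.10 and 1.41, while Gpr84 lies right of 0 at rest, at 3.24.

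PAM3 moved most of the receptors past the threshold, as it did most of all tested genes. The counts below stand beside the share of all tested genes. With the receptors chosen by hand, they are not a result about the receptors as a group. In 25HC-treated B6 cells 5 of 7 passed (58.9% of tested genes), with Hcar2 higher (28.5%) and Gpr34, Gpr65, S1pr1 and Gpr35 lower (30.4%). In Ch25h-/- cells 6 of 7 passed (62.0% of tested genes), with Gpr84 and Hcar2 higher (29.9%) and Gpr34, S1pr1, Ptafr and Gpr65 lower (32.1%). In untreated B6 cells 5 of 7 passed (62.1% of tested genes), with Gpr84 and Hcar2 higher (31.3%) and Gpr34, S1pr1 and Ptafr lower (30.8%). The median absolute log2 fold change of the receptors was 1.38, 2.92 and 2.45 in 25HC-treated B6, Ch25h-/- and untreated B6 cells, beside 0.54, 0.62 and 0.59 over all tested genes. The 3 comparisons have no library in common, although the B6 groups share animals.

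**Figure D2:**
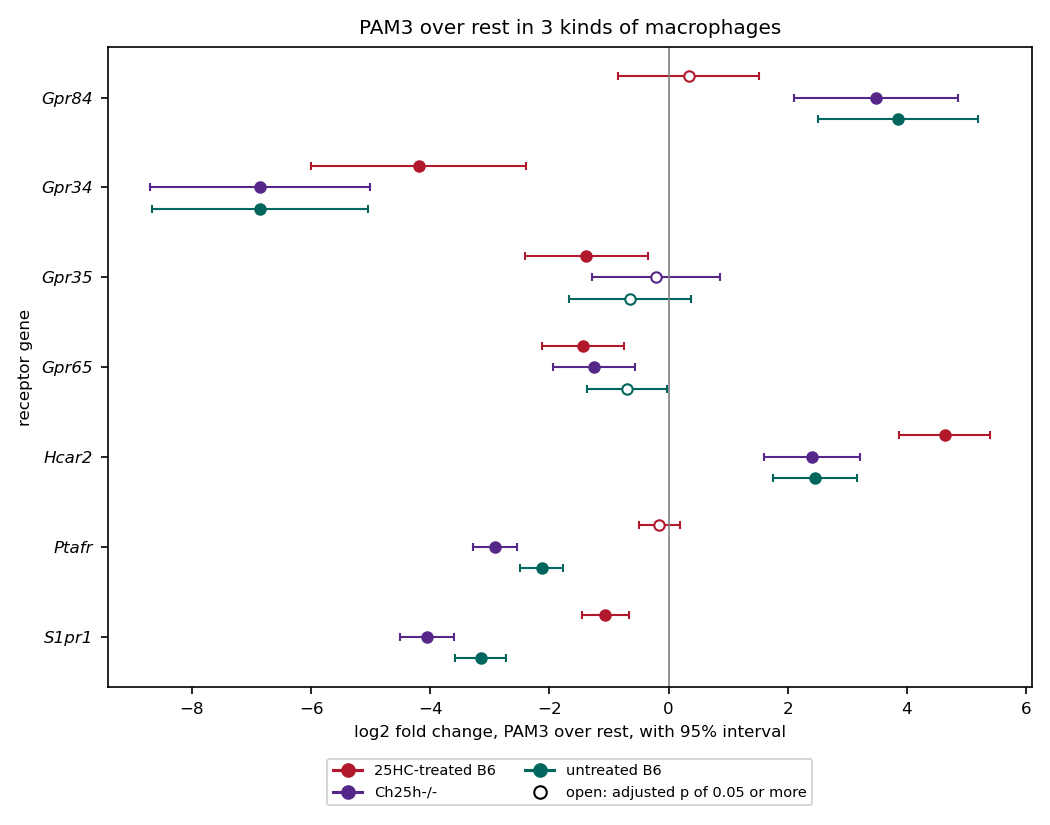
Log2 fold change of each receptor gene for PAM3 over rest in 25HC-treated B6 (red), Ch25h-/- (purple) and untreated B6 cells (green), with 95% intervals from the edgeR fit; open points did not pass the adjusted p threshold. Gpr84 and Ptafr lie near 0 in 25HC-treated cells, at 0.34 and -0.15, and far from 0 in the other cells.

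No receptor passed in the comparisons by genotype. For Ch25h-/- over B6 cells with PAM3, 0 of 7 passed with edgeR (0.173% of tested genes, 22 genes; 0.0471% higher and 0.126% lower), 3 had an unadjusted p below 0.05 and 1 passed with DESeq2. Over all tested genes 1784 had an unadjusted p below 0.05 in that comparison and 392 passed with DESeq2. At rest 0 of 7 passed (0.00785% of tested genes, 1 gene, Ch25h itself), with 2 at an unadjusted p below 0.05 and 0 with DESeq2, beside 704 and 20 over all tested genes. For the difference between genotypes in the PAM3 response, 0 of 7 passed (0.00% of tested genes), with 2 at an unadjusted p below 0.05 and 0 with DESeq2, beside 598 and 2 over all tested genes.

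**Figure D3:**
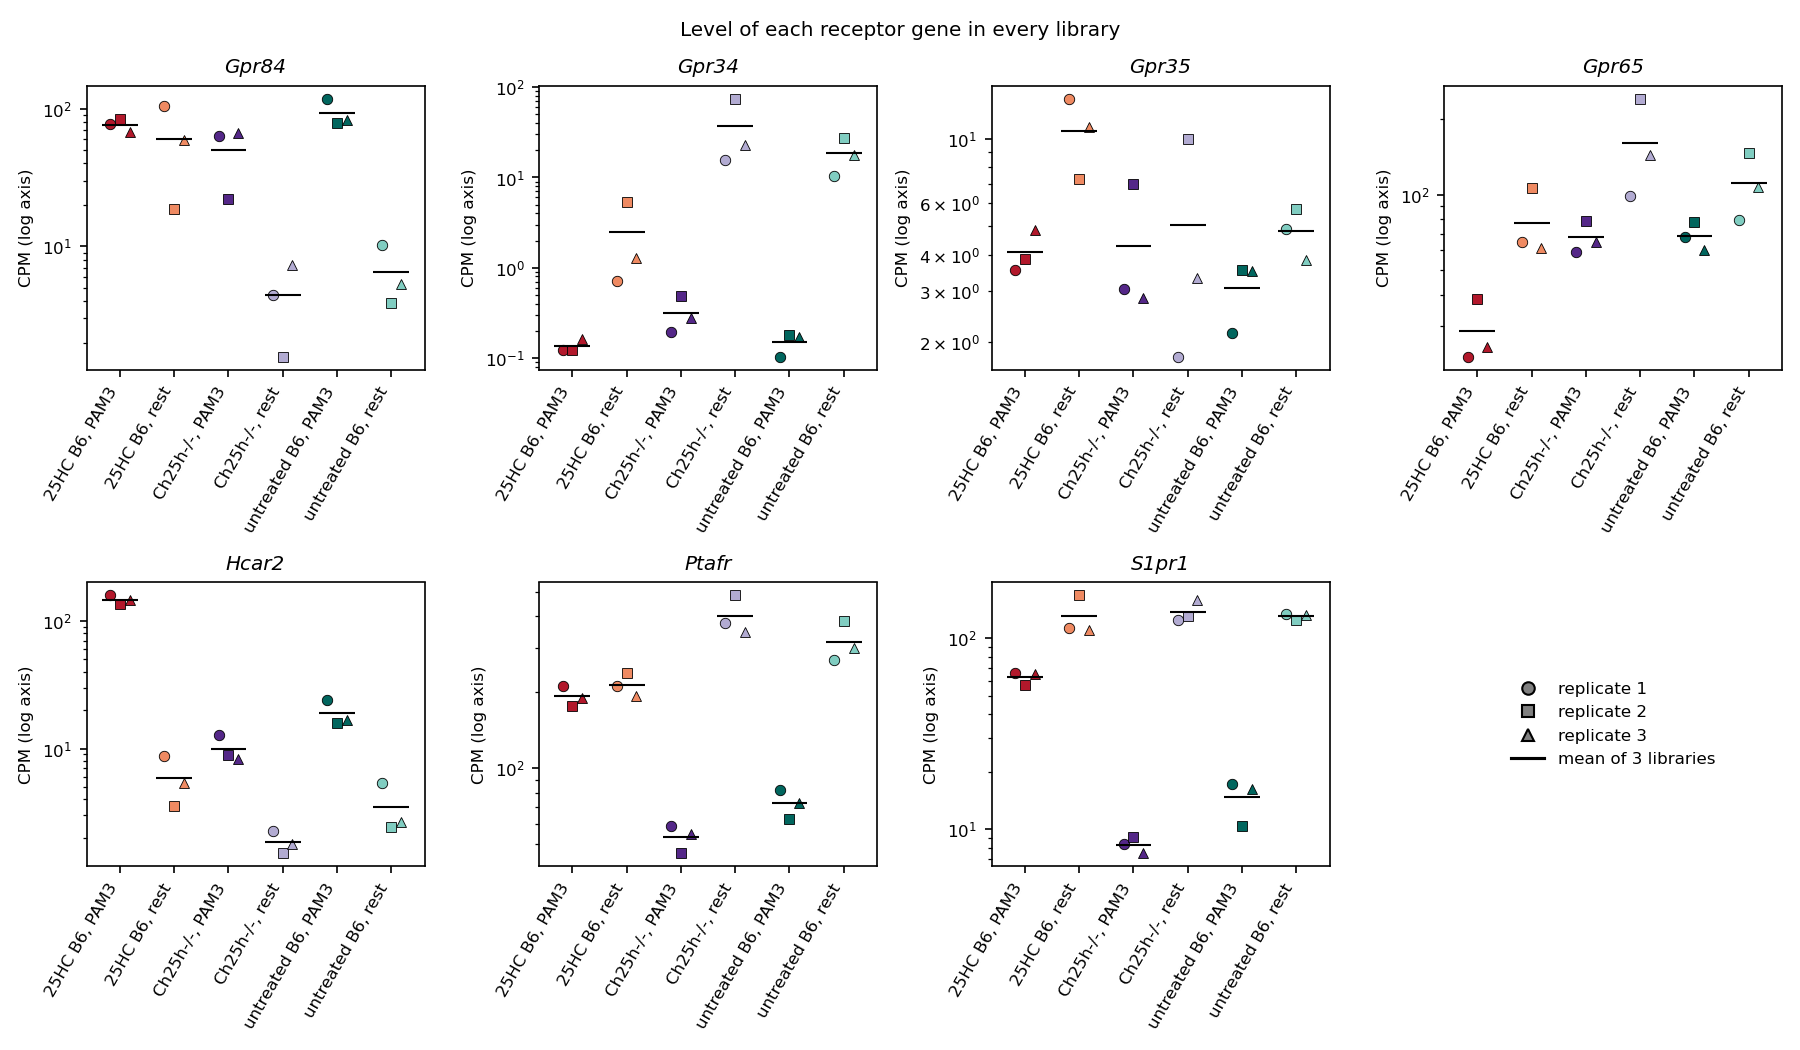
CPM of each receptor gene in every library on a log axis, by group, with a symbol for each replicate and a line at the group mean of 3 libraries; axes differ between panels. Hcar2 in 25HC-treated cells with PAM3, at 135 to 158 CPM, and S1pr1 in untreated and Ch25h-/- cells with PAM3, at 7.48 to 17.3 CPM, lie away from the other groups.

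S1pr1 (GRCm38, chr3:115710433-115715072, minus strand) encodes a Gi-coupled receptor known for guiding lymphocytes out of lymphoid tissue and for keeping the endothelial barrier. Its level was 65.8, 57.1 and 65.2 CPM for replicates 1, 2 and 3 of 25HC-treated B6 cells with PAM3, against 17.3, 10.5 and 16.4 CPM in untreated B6 cells with PAM3. Every 25HC-treated library with PAM3 was above every untreated one. At rest the groups overlapped, with 114, 168 and 111 CPM after 25HC, against 134, 125 and 133 CPM in untreated cells.

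With PAM3, S1pr1 was 4.28-fold higher after 25HC (log2 fold change 2.10 ± 0.19 SE, edgeR adjusted p = 1.20e-06, higher in 3 of 3 animals). At rest the log2 fold change was 0.00, with a 95% interval of -0.39 to 0.39 and an edgeR adjusted p of 0.994. The difference between the effects was 2.10 ± 0.26 SE (edgeR adjusted p = 0.000166). The PAM3 response itself was -1.06 ± 0.18 SE in 25HC-treated cells, or 2.09-fold lower (edgeR adjusted p = 0.000136), and -3.16 ± 0.20 SE in untreated cells, or 8.92-fold lower (edgeR adjusted p = 8.48e-09).

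Ch25h-/- cells held S1pr1 at 8.35, 9.11 and 7.48 CPM with PAM3, the lowest levels of the 6 groups, and at 124, 131 and 159 CPM at rest. PAM3 lowered it 16.6-fold there (log2 fold change -4.05 ± 0.21 SE, edgeR adjusted p = 1.40e-09). With PAM3 all Ch25h-/- libraries lay below all untreated B6 libraries, but the log2 fold change of -0.81 ± 0.19 SE did not pass (edgeR adjusted p = 0.0827). It passed with DESeq2 (-0.79, adjusted p = 0.0124), without replicate 2 of untreated B6 with PAM3 (-1.02, edgeR adjusted p = 0.0258) and without replicate 2 of every group (-1.09, edgeR adjusted p = 0.00532). It also passed with the mouse number as a block (-0.81, edgeR adjusted p = 0.0486), although the animals differ between genotypes. At rest the 2 genotypes overlapped, with a log2 fold change of 0.08 and a 95% interval of -0.31 to 0.47. S1pr1 is also abundant in endothelium, whose list of 4 markers summed to 1.34 to 2.27 CPM in 25HC-treated B6 cells with PAM3 and 1.74 to 4.19 CPM in untreated B6 cells with PAM3. Of that list Kdr alone exceeded 1 CPM, and Tek had 0 counts in every library of both groups. At rest the list summed to 7.19 to 8.39 CPM in 25HC-treated and 3.90 to 8.41 CPM in untreated B6 cells. In Ch25h-/- cells the sum was 0.566 to 3.91 CPM with PAM3 and 2.98 to 5.20 CPM at rest. PAM3 lowered 3 of its 3 tested members past the threshold in 25HC-treated B6, and 1 of 3, Egfl7, in both Ch25h-/- and untreated B6 cells. Of all tested genes, 30.4%, 32.1% and 30.8% were lower with PAM3 in 25HC-treated B6, Ch25h-/- and untreated B6 cells. Its part in the S1pr1 level was not tested.

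Ptafr (chr4:132564067-132582683, plus strand) encodes the receptor for platelet-activating factor, a phospholipid mediator of inflammation, and was the most abundant of the 7 receptors per length in untreated B6 cells at rest. With PAM3 its level was 212, 176 and 190.5 CPM in 25HC-treated B6 cells, against 82.4, 63.3 and 72.9 CPM in untreated B6 cells. At rest its level was 213, 238 and 194 CPM after 25HC, against 269, 384 and 301 CPM in untreated cells. The groups did not overlap in either setting, but the order was opposite: 25HC-treated libraries were the higher ones with PAM3 and the lower ones at rest.

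With PAM3 the 25HC effect on Ptafr was 1.41 ± 0.16 SE on the log2 scale, or 2.65-fold (edgeR adjusted p = 9.99e-06, 3 of 3 animals). At rest it was -0.57 ± 0.16 SE, or 1.48-fold lower (edgeR adjusted p = 0.0172, 3 of 3 animals lower). The call at rest was lost without replicate 2 of untreated B6 (edgeR adjusted p = 0.0834), without replicate 1 or 3 of the 25HC-treated cells (0.0645 and 0.0854), and when only the compared groups entered the fit (0.0502). The difference of the effects was 1.97 ± 0.23 SE (edgeR adjusted p = 0.000121).

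PAM3 did not move Ptafr past the threshold in 25HC-treated cells, where its log2 fold change was -0.15 with a 95% interval of -0.50 to 0.19 (edgeR adjusted p = 0.419). In Ch25h-/- cells it lay at 59.1, 46.0 and 54.8 CPM with PAM3, against 378, 485 and 346 CPM at rest. That was a log2 fold change of -2.92 ± 0.17 SE, or 7.56-fold lower (edgeR adjusted p = 6.24e-09). The change in untreated B6 cells was -2.13 ± 0.17 SE, or 4.37-fold lower (edgeR adjusted p = 7.69e-08). The difference between the genotypes in the response, -0.79 ± 0.23 SE, had the edgeR adjusted p of 0.992 and an unadjusted p of 0.00309.

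Gpr34 (chrX:13632089-13640858, plus strand) encodes a receptor for lysophosphatidylserine that is best known from microglia. It was close to absent from every library with PAM3. In 25HC-treated B6 cells it lay at 0.123, 0.122 and 0.162 CPM with PAM3 (7, 16 and 7 counts) and at 0.713, 5.39 and 1.29 CPM at rest. Ch25h-/- cells held 0.191, 0.479 and 0.279 CPM with PAM3 and 15.4, 74.4 and 22.9 CPM at rest. Untreated B6 cells held 0.102, 0.178 and 0.169 CPM with PAM3 (4, 25 and 6 counts) and 10.4, 27.5 and 17.7 CPM at rest. Replicate 2 was the highest library of each group at rest.

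At rest 25HC went with a 7.56-fold lower level of Gpr34 (log2 fold change -2.92 ± 0.65 SE, edgeR adjusted p = 0.00491, lower in 3 of 3 animals). The value was -4.20 without replicate 2 of the 25HC-treated cells at rest (edgeR adjusted p = 0.000493) and -3.79 without replicate 2 of every group. With PAM3 it was -0.26, with a 95% interval of -2.45 to 1.94 (edgeR adjusted p = 0.854), at counts too low to show a difference of that size.

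PAM3 lowered Gpr34 in all 3 kinds of cells. The log2 fold change was -4.20 ± 0.83 SE in 25HC-treated B6 (edgeR adjusted p = 0.000491), -6.86 ± 0.85 SE in Ch25h-/- (7.57e-06) and -6.86 ± 0.83 SE in untreated B6 cells (5.56e-06). Without replicate 2 at rest of the same cells it was -2.93 in 25HC-treated B6 (edgeR adjusted p = 0.00551) and -5.89 in Ch25h-/- cells. The difference in response between 25HC-treated and untreated cells was 2.66 ± 1.22 SE (edgeR adjusted p = 0.113). It passed with the animal as a block (2.97, edgeR adjusted p = 0.00898), with DESeq2 (2.75, adjusted p = 0.0410), without replicate 2 of the 25HC-treated cells at rest (3.94, edgeR adjusted p = 0.0149) and without replicate 2 of every group (3.85, edgeR adjusted p = 0.00818). With PAM3, 25HC-treated and untreated B6 cells both held Gpr34 near 0, at 30 and 35 counts over 3 libraries. This difference therefore cannot be told apart from the lower level at rest after 25HC. Gpr34 lies within Cask on the opposite strand, and the strand setting of the counting was not given in the sources used here. Cask lay between 26.2 and 53.6 CPM in every library, with its highest levels in 25HC-treated cells with PAM3, where Gpr34 was near 0.

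Hcar2 (chr5:123863570-123865499, minus strand) encodes the Gi-coupled niacin and ketone body receptor, known in macrophages for restraining inflammation. It was highest where both agents were present, at 158, 135 and 145 CPM in 25HC-treated B6 cells with PAM3, against 23.9, 15.9 and 16.8 CPM in untreated B6 cells with PAM3. At rest its level was 8.75, 3.56 and 5.37 CPM after 25HC, against 5.41, 2.44 and 2.68 CPM in untreated cells. The groups were far apart with PAM3 and overlapped at rest.

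With PAM3, Hcar2 was 7.75-fold higher after 25HC (log2 fold change 2.95 ± 0.32 SE, edgeR adjusted p = 6.43e-06, higher in 3 of 3 animals). Only 2.57% of tested genes had a larger absolute log2 fold change in that comparison. At rest the value was 0.77 ± 0.33 SE (edgeR adjusted p = 0.0914). It passed with the animal as a block (0.76, edgeR adjusted p = 0.00863), without replicate 1 of untreated B6 (1.20, edgeR adjusted p = 0.0124) and without replicate 2 of 25HC-treated B6 (1.03, edgeR adjusted p = 0.0258), and each animal's own value was higher after 25HC. The difference of the effects was 2.18 ± 0.44 SE (edgeR adjusted p = 0.00330).

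PAM3 raised Hcar2 24.8-fold in 25HC-treated B6 cells (log2 fold change 4.63 ± 0.35 SE, edgeR adjusted p = 6.99e-08). In Ch25h-/- cells, which held 12.8, 8.89 and 8.27 CPM with PAM3 and 2.28, 1.51 and 1.79 CPM at rest, it rose 5.31-fold (2.41 ± 0.37 SE, edgeR adjusted p = 5.21e-05). It rose in untreated B6 cells 5.48-fold (2.45 ± 0.32 SE, edgeR adjusted p = 1.28e-05). Ch25h-/- libraries lay below all untreated B6 libraries both with PAM3 and at rest. The log2 fold changes by genotype were -0.91 ± 0.31 SE with PAM3 (edgeR adjusted p = 0.182, unadjusted p = 0.00960) and -0.87 ± 0.37 SE at rest (edgeR adjusted p = 0.887, unadjusted p = 0.0333), and neither passed in this fit. The value with PAM3 passed with the mouse number as a block (-0.92, edgeR adjusted p = 0.0121), although the animals differ between genotypes.

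Gpr84 (chr15:103308235-103310612, minus strand) encodes a Gi-coupled receptor for medium-chain fatty acids whose RNA is known to rise in inflamed macrophages. At rest its level was 104, 18.6 and 58.9 CPM in 25HC-treated B6 cells, against 10.3, 3.86 and 5.34 CPM in untreated B6 cells. With PAM3 its level was 77.3, 84.3 and 67.4 CPM after 25HC, against 118, 78.4 and 82.2 CPM in untreated cells. The groups were separate at rest and overlapped with PAM3, and in 25HC-treated cells the libraries at rest spanned those with PAM3.

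The 25HC effect at rest was 3.24 ± 0.60 SE on the log2 scale, or 9.42-fold (edgeR adjusted p = 0.00165, higher in 3 of 3 animals). It was 2.59 without replicate 1 of the 25HC-treated cells (edgeR adjusted p = 0.0115). A larger absolute log2 fold change was found in 0.385% of tested genes. With PAM3 the effect was -0.28, with a 95% interval of -1.46 to 0.90 (edgeR adjusted p = 0.703). The difference of the effects was -3.52 ± 0.80 SE (edgeR adjusted p = 0.00593), and -2.87 without replicate 1 of the 25HC-treated cells at rest (edgeR adjusted p = 0.0191).

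In 25HC-treated cells the PAM3 response of Gpr84 was 0.34, with a 95% interval of -0.84 to 1.52 (edgeR adjusted p = 0.612). Ch25h-/- cells held 62.9, 22.1 and 66.4 CPM with PAM3 and 4.46, 1.58 and 7.39 CPM at rest, an 11.2-fold rise (3.48 ± 0.63 SE, edgeR adjusted p = 0.000235). Untreated B6 cells showed a 14.5-fold rise (3.85 ± 0.61 SE, edgeR adjusted p = 6.86e-05). Replicate 2 was the lowest library of every group except 25HC-treated B6 with PAM3. An antisense gene, Gm49482, overlaps Gpr84 and was not in the table.

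Gpr35 (chr1:92950865-92986391, plus strand) encodes a receptor studied in gut and immune cells, and it was the least abundant of the 7 per length in untreated B6 cells at rest. At rest its level was 13.7, 7.27 and 11.006 CPM after 25HC, against 4.88, 5.73 and 3.84 CPM in untreated B6 cells. With PAM3 it was 3.55, 3.87 and 4.86 CPM after 25HC, against 2.15, 3.54 and 3.52 CPM in untreated cells. The 25HC-treated libraries were the higher ones in both settings, narrowly so with PAM3.

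The 25HC effect on Gpr35 at rest was 1.14 ± 0.47 SE (edgeR adjusted p = 0.0856) and did not pass. It passed with the animal as a block (1.14, edgeR adjusted p = 0.0116), with only the compared groups in the fit (1.13, 0.0347), without replicate 1 or 2 of Ch25h-/- cells at rest (0.0464 and 0.0196), which are not in the comparison but enter the shared spread, and without replicate 2 of every group (1.51, 0.00161). With PAM3 the effect was 0.41, with a 95% interval of -0.62 to 1.43 (edgeR adjusted p = 0.507). PAM3 lowered Gpr35 2.61-fold in 25HC-treated cells (-1.38 ± 0.47 SE, edgeR adjusted p = 0.0203), a call lost without replicate 1 of those cells at rest (0.0715) or without replicate 1 or 2 of those with PAM3 (0.0679 and 0.0568). In Ch25h-/- cells the libraries ranged from 2.84 to 6.97 CPM with PAM3 and from 1.78 to 10.01 CPM at rest, replicate 2 being the highest in each, and the log2 fold change was -0.21 (edgeR adjusted p = 0.729). The value in untreated B6 cells was -0.65 (edgeR adjusted p = 0.247).

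Gpr65 (chr12:98268635-98276644, plus strand) encodes a Gs-coupled receptor that raises cyclic AMP when the surroundings turn acid. With PAM3 its level was 22.6, 38.4 and 24.8 CPM in 25HC-treated B6 cells, against 68.0, 77.6 and 60.5 CPM in untreated B6 cells. Every treated library was below every untreated one. At rest the groups overlapped, with 64.8, 106 and 61.6 CPM after 25HC, against 79.5, 146 and 107 CPM in untreated cells, although each animal's own value was lower after 25HC.

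The 25HC effect on Gpr65 with PAM3 was -1.26 ± 0.31 SE on the log2 scale, or 2.40-fold lower (edgeR adjusted p = 0.00411, 3 of 3 animals). At rest it was -0.52 ± 0.31 SE (edgeR adjusted p = 0.222), and it passed with the animal as a block (-0.53, edgeR adjusted p = 0.0261) and without replicate 2 of every group (-0.57, 0.0253). The difference of the effects was -0.74 ± 0.44 SE (edgeR adjusted p = 0.214), and -0.78 with the block (edgeR adjusted p = 0.0217) and -0.87 without replicate 2 of every group (0.0181).

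PAM3 lowered Gpr65 2.70-fold in 25HC-treated B6 cells (-1.43 ± 0.31 SE, edgeR adjusted p = 0.00118). Ch25h-/- cells held 59.2, 78.6 and 64.7 CPM with PAM3 and 98.6, 239.7 and 144 CPM at rest, a 2.38-fold fall (-1.25 ± 0.31 SE, edgeR adjusted p = 0.00290). In untreated B6 cells the value of -0.69 ± 0.31 SE did not pass (edgeR adjusted p = 0.0623), and it passed with the animal as a block (-0.65, edgeR adjusted p = 0.00349), with DESeq2 (-0.72, adjusted p = 0.0377), with only the compared groups in the fit (0.0282) and without replicate 1 of untreated B6 at rest (-0.88, 0.0305). It also passed without replicate 2 of 25HC-treated B6 at rest (0.0474) or replicate 1 or 2 of Ch25h-/- cells at rest (0.0369 and 0.0293), and without replicate 2 of every group (-0.54, 0.0186). The antisense gene Gm47566 overlaps Gpr65 and was not in the table.

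Levels of different receptors can be compared per length of exon. In 25HC-treated B6 cells with PAM3, Hcar2 was highest at 75.7 ± 6.08 CPM per kb (SD, n = 3), followed by Ptafr at 53.1 ± 5.00, Gpr84 at 44.3 ± 4.92, S1pr1 at 20.6 ± 1.61 and Gpr65 at 13.8 ± 4.11. The order in untreated B6 cells with PAM3 began with Gpr84 at 53.8 ± 12.5 CPM per kb (SD, n = 3), then Gpr65 at 33.2 ± 4.16, Ptafr at 20.03 ± 2.63, Hcar2 at 9.78 ± 2.27 and S1pr1 at 4.83 ± 1.21. Gpr35 and Gpr34 were lowest in both, at 0.846 and 0.0649 CPM per kb in 25HC-treated cells with PAM3 and at 0.634 and 0.0716 CPM per kb in untreated cells with PAM3. In untreated B6 cells at rest Ptafr led at 87.5 ± 16.4 CPM per kb (SD, n = 3), followed by Gpr65 at 53.7 ± 16.2, S1pr1 at 42.9 ± 1.54, Gpr34 at 8.87 ± 4.12, Gpr84 at 3.77 ± 1.96, Hcar2 at 1.82 ± 0.855 and Gpr35 at 0.996 ± 0.195. Of these 3 groups Hcar2 thus led only in that with both agents, and was near the low end in untreated B6 cells at rest.

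Ordered by group mean, several neighbouring groups overlapped. For Hcar2 the group with both agents led and overlapped no other, and untreated B6 cells with PAM3 came next without overlap, while Ch25h-/- cells with PAM3 overlapped 25HC-treated cells at rest. Ptafr and S1pr1 had Ch25h-/- cells at rest first and Ch25h-/- cells with PAM3 last. The 3 groups at rest overlapped each other for S1pr1, while 25HC-treated, untreated and Ch25h-/- cells with PAM3 followed in that order without overlap. Gpr84 overlapped between neighbours among the 4 groups with PAM3 or 25HC, and those stood clear of untreated and Ch25h-/- cells at rest. For Gpr65 the order ended with 25HC-treated cells with PAM3, the only group that did not overlap its neighbour.

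Across the 18 libraries, the receptors fell into differing patterns, described here by Pearson's r of log2 CPM. The libraries share animals and fall into PAM3 and rest clusters, so r is a description of likeness only. Among 9328 genes of at least 5 CPM on average, the likest to Ptafr were Slc40a1 (r = 0.986), which encodes the iron exporter ferroportin, and Peli2 (0.984), and to S1pr1 Mfsd6 and Cxcr4 (both 0.985). The likest to Hcar2 were Adora2b (0.982), an adenosine receptor, and Pvr (0.981). For Gpr84 they were Yars (0.977) and Aldh18a1 (0.975), which encode a transfer RNA synthetase and an enzyme of proline synthesis. For Gpr34 they were Dusp22 and Gng2 (both 0.991), for Gpr65 Itm2b (0.965) and Engase (0.962), and for Gpr35, whose closest genes were less alike, Dus3l and Syn1 (both 0.839). Among the receptors themselves r was 0.959 between Ptafr and S1pr1 and -0.951 between Gpr84 and Gpr34.

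Other receptors of the same ligand classes were examined as lists. Of 18 further receptors for lysophospholipids, protons and oxysterols, 13 were tested. With PAM3, 25HC went with higher levels of 2 of these and lower levels of 2 (21.5% and 23.6% of all tested genes), with a median log2 fold change of -0.08 beside -0.04 over all tested genes. Lpar5, a lysophosphatidic acid receptor, lay at 0.763 ± 0.301 CPM after 25HC, against 7.55 ± 2.33 CPM in untreated cells (SD, n = 3 each; log2 fold change -3.25, edgeR adjusted p = 5.71e-06). S1pr2 fell (-1.33, edgeR adjusted p = 1.33e-05), opposite to S1pr1. Gpr132, a relative of Gpr65, rose (2.10, edgeR adjusted p = 0.000228).

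At rest 2 of the 13 were higher and 1 was lower after 25HC (14.8% and 11.4% of all tested genes), with a median of -0.33 beside -0.01 over all tested genes. Lpar1 (1.60) and S1pr4 (1.06) were higher, and Lpar6 (-1.24) was lower. The difference of the 25HC effects passed for 6 of the 13 (28.3% of all tested genes), with 3 positive and 3 negative, among them Lpar5 (-2.39) and S1pr2 (-1.01). In untreated B6 cells PAM3 raised 5 and lowered 7 (31.3% and 30.8% of all tested genes), among them Gpr183 (-3.56), the receptor for dihydroxylated oxysterols made from 25HC, Gpr18 (6.08) and Lpar1 (3.96). Gpr183 also fell in 25HC-treated B6 (-3.81) and in Ch25h-/- cells (-4.62).

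**Figure D4:**
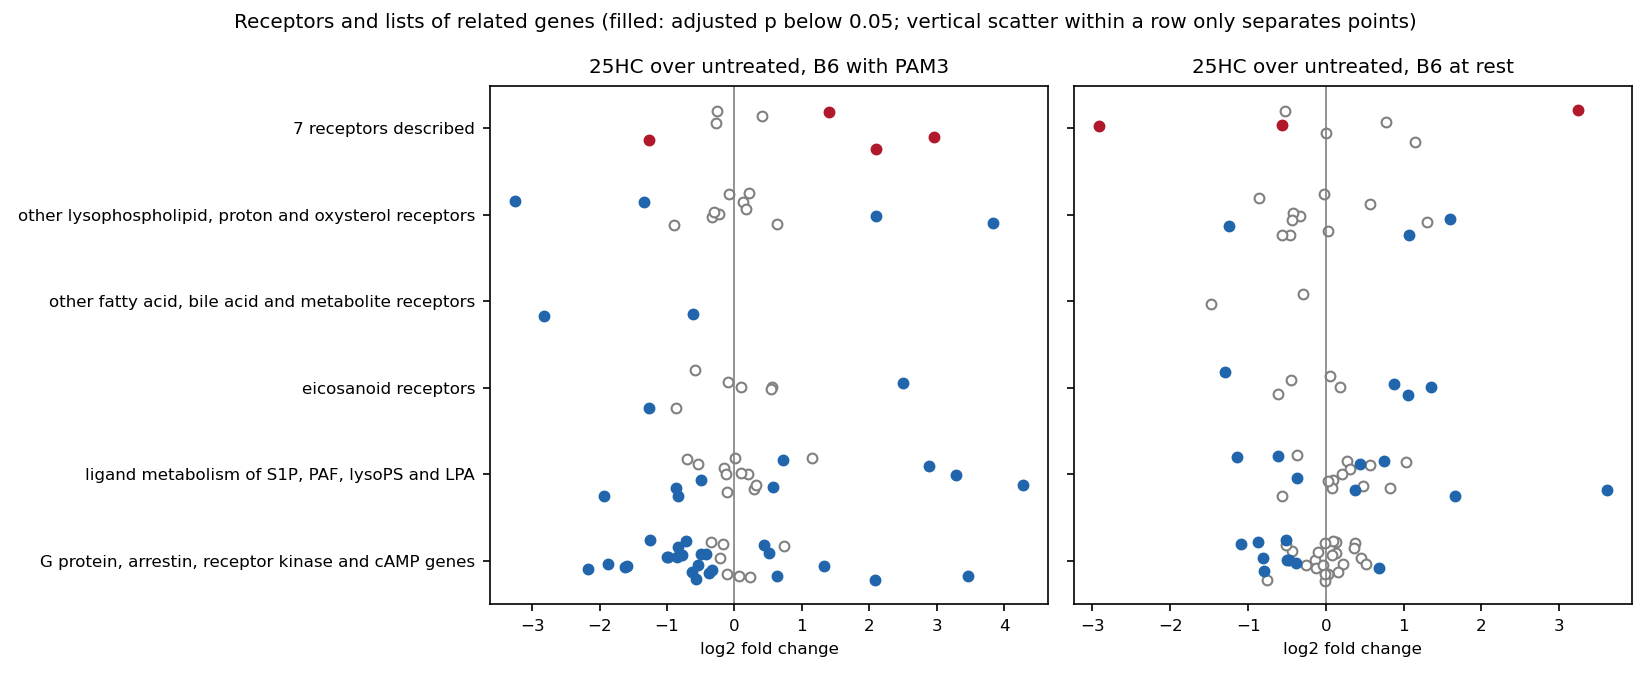
Log2 fold change of 25HC over untreated B6 cells with PAM3 (left) and at rest (right) for the 7 receptors (red) and the tested members of 5 lists of related genes (blue where the adjusted p was below 0.05, open otherwise). Called members lie on both sides of 0 in most lists, and in the list of G proteins and cAMP genes 18 of 31 were lower with PAM3, beside 23.6% of all tested genes.

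Of 11 further receptors for fatty acids, bile acids and metabolites, 2 passed the filter, the cannabinoid receptor gene Cnr2 and Ffar2. Both fell with 25HC in PAM3-treated cells, Cnr2 by 0.61 and Ffar2 by 2.82 on the log2 scale, where 23.6% of all tested genes were lower. Neither passed at rest, where 26.2% of all tested genes did. Cnr2 was also lower in Ch25h-/- than in untreated B6 cells with PAM3 (-0.64 ± 0.12 SE, edgeR adjusted p = 0.0424), at 9.44 ± 0.184 CPM in Ch25h-/- cells, against 14.7 ± 1.31 CPM in untreated B6 cells (SD, n = 3 each). In that comparison 0.126% of all tested genes were lower. With only the compared groups in the fit 0 genes passed, so this call was lost. Of 13 eicosanoid receptors 8 were tested, and 25HC went with 1 higher and 1 lower with PAM3 (21.5% and 23.6% of all tested genes) and with 3 higher and 1 lower at rest (14.8% and 11.4%). Ptger2, a Gs-coupled receptor for prostaglandin E2, was higher in both settings (2.51 with PAM3, edgeR adjusted p = 6.64e-06, and 1.36 at rest, edgeR adjusted p = 0.00231), while Cysltr1 was lower with PAM3 (-1.26).

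Of 20 tested genes that make or break down the lipid ligands, 25HC went with 5 higher and 4 lower with PAM3, where 21.5% and 23.6% of all tested genes were (median log2 fold change 0.06, beside -0.04 over all tested genes). At rest 5 were higher and 3 lower, where 14.8% and 11.4% of all tested genes were (median 0.30, beside -0.01). Plpp3, which encodes a lipid phosphate phosphatase, rose by 3.29 with PAM3 and by 1.66 at rest. Sgpp1, a phosphatase that removes sphingosine 1-phosphate, fell by 0.84 with PAM3 and by 1.14 at rest. Sphk1, a kinase that makes sphingosine 1-phosphate, was called higher with PAM3 but rested on 141 counts in 25HC-treated libraries and 7 in untreated ones. Sphk1 was also called higher after 25HC at rest (3.61 ± 0.79 SE, edgeR adjusted p = 0.00461), at a still lower level. In 25HC-treated cells PAM3 over rest was 1.74 (edgeR adjusted p = 0.00476). The difference of the 25HC effects on Sphk1 did not pass (0.67 ± 1.61 SE, edgeR adjusted p = 0.851) and was too imprecise to show them alike. Sgpl1, the lyase of sphingosine 1-phosphate, fell by 0.62 at rest, and Pla2g7, which encodes a hydrolase of platelet-activating factor, lay at 255 ± 7.91 CPM with both agents, against 155 ± 19.3 CPM in untreated B6 cells with PAM3 (SD, n = 3 each).

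Downstream of the receptors, of 31 tested genes for G proteins, arrestins, receptor kinases and cyclic AMP enzymes, 25HC went with 6 higher and 18 lower with PAM3 (median log2 fold change -0.42) and with 1 higher and 8 lower at rest (median -0.03). Over all tested genes 21.5% were higher and 23.6% lower with PAM3 (median -0.04), and 14.8% and 11.4% at rest (median -0.01). With PAM3, Adcy7, an adenylyl cyclase, fell by 1.62, Pde4a, a phosphodiesterase, fell by 1.00, and Crem, a cyclic AMP-responsive transcription factor, rose by 2.08. PAM3 in untreated B6 cells raised 13 and lowered 10 of the 31 (31.3% and 30.8% of all tested genes), with Gnb4 at -2.02, Gng2 at -1.60 and Gng12 at 1.48. Klf2, a transcription factor that drives S1pr1 in T cells, and Cd69, whose product removes S1PR1 protein from the cell surface in lymphocytes, were examined beside S1pr1. Klf2 fell with 25HC in PAM3-treated cells (-2.54, edgeR adjusted p = 8.92e-07), where S1pr1 was higher, to 0.814 ± 0.252 CPM after 25HC, against 4.80 ± 1.31 CPM in untreated cells (SD, n = 3 each). Cd69 rose in the same comparison (2.15, edgeR adjusted p = 0.000356), to 199.9 ± 18.5 CPM after 25HC, against 45.2 ± 22.1 CPM in untreated cells (SD, n = 3 each). For PAM3 over rest, Klf2 fell in 25HC-treated B6 (-4.73), Ch25h-/- (-2.24) and untreated B6 cells (-2.57), where S1pr1 fell too. Cd69 rose with PAM3 in the same cells (5.02, 3.88 and 3.97).

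Markers of other cells that carry these receptors were examined as lists. Neutrophils are known to express several of these receptors, and 6 neutrophil markers summed to 0.474 to 0.892 CPM in 25HC-treated B6 with PAM3, 0.554 to 0.749 CPM in 25HC-treated B6 at rest, 1.77 to 3.83 CPM in Ch25h-/- with PAM3, 5.05 to 25.7 CPM in Ch25h-/- at rest, 1.35 to 2.28 CPM in untreated B6 with PAM3 and 1.48 to 2.33 CPM in untreated B6 at rest. Of 5 T cell markers Cd3e and Cd3g had 0 counts in every library, where 3 counts would have been 0.0213 to 0.206 CPM, and Cd4 alone exceeded 1 CPM. Their sum, nearly all of it Cd4, was 0.185 to 0.381 CPM in 25HC-treated B6 with PAM3, 4.08 to 8.99 CPM in 25HC-treated B6 at rest, 0.955 to 2.44 CPM in Ch25h-/- with PAM3, 8.66 to 56.1 CPM in Ch25h-/- at rest, 1.15 to 1.91 CPM in untreated B6 with PAM3 and 10.9 to 26.2 CPM in untreated B6 at rest. Cd4 fell with 25HC in PAM3-treated cells (-2.45, edgeR adjusted p = 0.00794) and with PAM3 in 25HC-treated B6 (-4.31), Ch25h-/- (-4.01) and untreated B6 cells (-3.39), and it was -1.53 for 25HC at rest (edgeR adjusted p = 0.0568). Of 4 B cell markers Cd79b alone exceeded 1 CPM, and the list summed to 0.895 to 23.8 CPM over the libraries. Dendritic cell markers summed to at most 2.67 CPM, fibroblast markers to at most 11.4 CPM, and mast cell and basophil markers to at most 0.343 CPM. Their part in the receptor levels was not tested.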

How the data were processed

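Raw counts per gene were deposited by the authors in 1 table of 30530 genes by 18 libraries, with 14.04 to 150.4 M counts per library. Per the submitters' processing notes, the tools were FastQC 0.11.9, GSNAP, featureCounts (Subread 1.5.2) and edgeR 3.26.8, with GRCm38. Which strand setting was used was not given in the sources used here. Positions and exon lengths came from GENCODE M21, which held 30118 of the 30530 identifiers.

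The 12741 genes kept by filterByExpr were scaled with TMM and fitted with a mean for each group in 1 model of all libraries (12 residual degrees of freedom). Contrasts were tested with the robust quasi-likelihood test of edgeR 4.0.16, two-sided, and p-values were adjusted by Benjamini and Hochberg's method over those genes (R 4.3.3, with limma 3.58.1; figures with Python 3.11.15). A standard error is the size of the log2 fold change over the square root of the F value. The 95% intervals follow from the t distribution with the 12 residual degrees of freedom. The test itself draws on further degrees of freedom, so an interval can include 0 at an unadjusted p just below 0.05. CPM used TMM-scaled totals, and likeness used log2 CPM (prior count 2). The code was tested on simulated data.

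The members and lists were chosen with earlier results of these data known. The text names all receptors, Ch25h, up to 3 list members of smallest adjusted p below 0.05 in a comparison and the 2 likest genes of a receptor; values of these in other comparisons are given where they add to them. A gene that met this rule is not reported here. The table has older symbols for some genes (Emr1 for Adgre1, Ppap2b for Plpp3). Within a genotype the mouse number marks 1 animal per the labels, so the animal was tried as a block. Deviations from group means of same-numbered 25HC-treated and untreated libraries correlated at 0.448, 0.581 and 0.348 at rest and at 0.406, 0.377 and -0.162 with PAM3. Between genotypes at rest, where animals differ, they correlated at 0.574, 0.705 and 0.327, and the number was tried as a block. No replicate of a group duplicated another of that group.

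Alternatives tried were size factors of DESeq2 1.42.0, its Wald test, testing all genes or only those at 1 CPM in 3 libraries, fitting the compared groups alone, the block and leaving out each library. Leaving out replicate 2 of every group was added after seeing the data.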

Additional observations from a re-analysis of the deposited data

Results flagged for a closer look

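For 4 receptors the 25HC effect differed between B6 cells with PAM3 and B6 cells at rest by the test of the difference itself. Of all tested genes, 28.3% passed the same test. The receptors were chosen with values of these libraries known, so their count is not a result about them as a group. On the log2 scale the difference between the 25HC effects was 2.18 for Hcar2, 2.10 for S1pr1, 1.97 for Ptafr and -3.52 for Gpr84. For Hcar2, S1pr1 and Ptafr it was positive in 3 of 3 animals, and for Gpr84 it was negative in 3 of 3. Over all alternatives it ran from 1.75 to 2.57 for Hcar2, from 1.90 to 2.32 for S1pr1 and from 1.82 to 2.08 for Ptafr, and it was -2.87 or further from 0 for Gpr84. Its edgeR or DESeq2 adjusted p stayed below 0.05 in each.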

How the results depend on the processing

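No value that passed the threshold changed sign under any alternative. The receptors called for 25HC at rest numbered 3 in the fit reported, 6 with the replicate block and 5 without replicate 2 of every group. For Ch25h-/- over B6 with PAM3 they numbered 0, then 1 with DESeq2 (S1pr1), 2 with the number as replicate block (S1pr1 and Hcar2), 0 to 1 with 1 library left out and 1 without replicate 2 of every group. In that last comparison the animals differ between genotypes, so the block used the numbers only as numbers. Same-numbered libraries correlated there at 0.322, 0.459 and 0.0949. The block changed no other receptor call than those given beside the results. Values that did not pass changed sign as follows. S1pr1 for 25HC at rest was -0.022 with DESeq2 size factors and with DESeq2, -0.056 without a filter, -0.0049 with a filter at 1 CPM, -0.0047 with only the compared groups, -0.22 to 0.11 with 1 library left out and -0.25 without replicate 2 of every group. Gpr35 for Ch25h-/- over B6 at rest was -0.035 without a filter, -0.069 with the replicate block, -0.93 to 0.46 with 1 library left out and -0.78 without replicate 2 of every group. Gpr65 for Ch25h-/- over B6 with PAM3 was 0.0096 with only the compared groups and -0.15 to 0.071 with 1 library left out. For the genotype difference in the PAM3 response, Gpr34 was 0.0047 with DESeq2 size factors, 0.056 with DESeq2, 0.058 without a filter, 0.051 with only the compared groups, 0.34 with the replicate block and 0.36 without replicate 2 of every group, and Hcar2 was 0.017 without a filter and 0.026 with only the compared groups. With 1 library left out that difference ran from -0.45 to 0.96 for Gpr34, -0.47 to 0.17 for Hcar2, -0.86 to 0.16 for Gpr84 and -0.11 to 1.41 for Gpr35. Without replicate 2 of every group Gpr34 for 25HC with PAM3 was 0.060, Gpr84 for PAM3 in 25HC-treated cells -0.17 and Gpr35 for PAM3 in Ch25h-/- cells 0.22. With 1 library left out these last 2 ran from -0.10 to 0.97 and from -0.77 to 0.76, while Gpr35 for Ch25h-/- over B6 with PAM3 ran from -0.071 to 0.70 and S1pr1 for Ch25h-/- over B6 at rest from -0.032 to 0.15. The cause was not tested. Over all genes, calls for Ch25h-/- over B6 with PAM3 numbered 22 in the fit reported, 392 with DESeq2, 368 with the number as replicate block, 384 without replicate 2 of every group, 13 without a filter, 0 with only the compared groups and 1 to 254 with 1 library left out (replicates 3 and 1 of Ch25h-/- with PAM3). Depth limits Gpr34 with PAM3, at 4 to 25 counts per library.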
